A study of Mus musculus with 10 samples.

Results

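Collagens are proteins of 3 chains wound into a triple helix, and they are a main component of the extracellular matrix. The genes described here are the 42 mouse genes for collagen chains other than Col4a1 and Col4a2, out of 21938 protein-coding genes, chosen by symbol (Col, a number, the letter a and a number). Col4a1 and Col4a2 encode the chains of the basement membrane network that primitive endoderm (PrE) and its derivatives lay down. The remaining collagens are best known from connective tissue, cartilage, skin and other organs. H3K4me3 is a histone mark found at the promoters of active and poised genes, and here it says whether a promoter carried the mark, not how much RNA or protein was made.

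CUT&Tag, which uses an antibody to bring a transposase to chromatin, measured the mark in naive extra-embryonic endoderm (nEnd), a PrE-like culture derived from mouse embryonic stem cells. All cells carried the OCT4-mCherry reporter, came from that single reporter line, grew in RACL medium on mouse embryonic fibroblast feeders and received no further treatment. They were sorted by FACS on OCT4-mCherry and on PDGFRA at the surface into Oct4+ nEnd (4 libraries), double positive (DP) nEnd (3 libraries) and Pdgfra+ nEnd (3 libraries), each library being 1 replicate of its population. A gene was called marked where at least 1 bp of an H3K4me3 peak fell between 1000 bp before and 100 bp after a TSS, its promoter window. The percentile of a peak is the share of the peaks of its own library with the same or a lower total signal, because coverage was not scaled between libraries.

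The libraries held from 3477 to 10545 peaks and marked from 18.3% to 50.8% of protein-coding genes. Oct4+ nEnd replicate 3 held the fewest peaks, and the deposited consensus of 7860 Oct4+ nEnd peaks was recovered exactly from replicates 1, 2 and 4 (overlapping peaks merged, those of 2 or more libraries kept), without replicate 3. Pdgfra+ nEnd replicate 2 had narrower peaks, with a median width of 2204.5 bp against 3032.5 to 4222.5 bp in the other 9 libraries. Peaks reached a median highest coverage of 22 to 59 in Oct4+ nEnd, 107 to 144 in DP nEnd and 67 to 143 in Pdgfra+ nEnd. The sorted populations matched their labels: of the 4 Oct4 markers (Pou5f1, Nanog, Sox2 and Esrrb), 4 were marked in every Oct4+ and DP nEnd library and 0 in every Pdgfra+ nEnd library. Of the 4 endoderm markers (Pdgfra, Gata4, Sox17 and Foxa2), 4 were marked in every DP and Pdgfra+ nEnd library and 0 to 3 in Oct4+ nEnd. Pou5f1, the gene of OCT4, and Pdgfra encode the proteins used for the sort, so their marks are not independent of it.

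Only 4 of the 42 collagen genes (9.52%) were marked in 1 library or more, against 11632 of 21938 protein-coding genes (53.0%). They were Col18a1 in Oct4+ nEnd, Col5a1 and Col27a1 in DP and Pdgfra+ nEnd, and Col23a1 in a single Pdgfra+ nEnd library. No collagen gene was marked in all 10 libraries, while 3616 protein-coding genes (16.5%) were. The peaks that marked these 4 genes overlapped the promoter of no other protein-coding gene.

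The promoters of Col5a1, Col27a1 and Col18a1 are shown because their percentiles did not overlap between Oct4+ and DP nEnd. Each is the 250 bases upstream of the RefSeq TSS (GRCm38.p6), written 5′ to 3′ on the strand of the gene, with every CpG in capitals, since promoters rich in CpG are those most often marked by H3K4me3. Col3a1, a chain of the fibrils of soft connective tissue without a peak in any library, is added as a contrast and was chosen after its values were seen.
Col5a1 (chr2:27886175-27886424, plus strand): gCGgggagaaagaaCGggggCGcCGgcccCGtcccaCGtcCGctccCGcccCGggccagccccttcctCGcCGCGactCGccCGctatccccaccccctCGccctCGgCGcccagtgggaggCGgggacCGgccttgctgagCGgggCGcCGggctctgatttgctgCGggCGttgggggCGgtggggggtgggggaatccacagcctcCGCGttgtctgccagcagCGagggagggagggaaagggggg
Col27a1 (chr4:63215162-63215411, plus strand): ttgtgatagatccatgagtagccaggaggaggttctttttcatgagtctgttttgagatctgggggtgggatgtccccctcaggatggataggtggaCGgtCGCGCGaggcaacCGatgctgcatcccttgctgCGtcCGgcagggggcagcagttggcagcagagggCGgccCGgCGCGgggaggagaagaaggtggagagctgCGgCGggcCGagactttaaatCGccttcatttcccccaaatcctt
Col18a1 (chr10:77166531-77166780, minus strand): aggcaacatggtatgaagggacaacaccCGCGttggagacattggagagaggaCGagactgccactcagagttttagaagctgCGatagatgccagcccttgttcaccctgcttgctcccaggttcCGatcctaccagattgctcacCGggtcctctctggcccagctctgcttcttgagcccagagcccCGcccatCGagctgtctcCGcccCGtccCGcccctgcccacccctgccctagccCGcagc
Col3a1 (chr1:45311288-45311537, plus strand): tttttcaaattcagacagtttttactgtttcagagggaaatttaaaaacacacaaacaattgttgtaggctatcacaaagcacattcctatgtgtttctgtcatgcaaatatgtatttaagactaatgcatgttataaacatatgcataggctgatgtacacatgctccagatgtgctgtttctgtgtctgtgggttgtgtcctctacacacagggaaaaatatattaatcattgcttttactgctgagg

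The stretch upstream of Col5a1 held 28 CpG, as many as or more than which were found in 7.61% of 32851 RefSeq promoters. Col27a1 held 15 (27.3% of promoters have as many) and Col18a1 held 12 (33.5%). Col3a1 held 0, whereas 92.1% of promoters held at least 1 and the median was 6. The CG pair reads the same on either strand. RefSeq promoters were matched for 33 of the 42 genes. The RefSeq start lies 23 bp from the start used below for Col27a1 and 18 bp from that for Col18a1, and at the same base for Col5a1.

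By class, the fibrillar collagens, which assemble into the banded fibrils of connective tissue, had 2 of 11 genes marked. Col5a1 and Col27a1 were those 2, and the major fibril genes Col1a1, Col1a2, Col2a1 and Col3a1 had no peak in any library, nor had Col5a2, Col5a3, Col11a1, Col11a2 and Col24a1. Of the multiplexins, basement membrane collagens with interrupted helices, Col18a1 was marked and Col15a1 was not. Of the 4 transmembrane collagens Col23a1 was marked, and Col13a1, Col17a1 and Col25a1 were not. The remaining classes had 0 genes marked in all 10 libraries. These were the other basement membrane network chains (Col4a3, Col4a4, Col4a5 and Col4a6), the short-chain network collagens (Col8a1, Col8a2 and Col10a1), the beaded filament collagens (Col6a1 to Col6a6) and the anchoring fibril gene Col7a1. The 9 FACIT genes, whose products sit on the surface of fibrils (Col9a1, Col9a2, Col9a3, Col12a1, Col14a1, Col16a1, Col19a1, Col20a1 and Col22a1), had none either, and nor had Col26a1 and Col28a1.

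The 38 unmarked genes had no peak anywhere in the gene body. Their nearest peak lay a median of 73.5 kb from a TSS. For 5 of them a peak came within 10 kb in at least 1 library, and in each case it sat at the promoter of a neighbour. The closest was 3912 bp from a TSS of Col11a2, in DP nEnd replicate 2, in a peak over the promoters of H2-Ke6, Ring1, Rxrb and Slc39a7. The others lay near Col4a3 (at Mff), Col9a3 (at Ogfr), Col16a1 (at Pef1) and Col7a1 (at Pfkfb4).

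Per library, 1 collagen gene was marked in each of the 4 Oct4+ nEnd libraries (1 ± 0, SD, n = 4) and 2 in each of the 3 DP nEnd libraries (2 ± 0, SD, n = 3). The Pdgfra+ nEnd libraries had 3, 0 and 2 marked in replicates 1, 2 and 3 (1.67 ± 1.53, SD, n = 3). The Pdgfra+ nEnd values thus spanned those of both other populations, while the Oct4+ and DP nEnd values did not overlap. The libraries also differed in how many genes they marked in all, with 31.6% ± 11.8 of protein-coding genes in Oct4+ nEnd (SD, n = 4), 41.8% ± 2.90 in DP nEnd (SD, n = 3) and 41.3% ± 8.74 in Pdgfra+ nEnd (SD, n = 3). Without Pdgfra+ nEnd replicate 2 the difference of DP minus Pdgfra+ nEnd changed sign, from 0.333 to −0.50 genes per library, and that of Oct4+ minus Pdgfra+ nEnd went from −0.667 to −1.5. Without Pdgfra+ nEnd replicate 1 these differences were 1 and 0. Counting only the 3477 peaks of highest total signal in each library left Col18a1 as the sole marked collagen gene, in 4 of 4 Oct4+ nEnd libraries, and turned the difference of Oct4+ minus DP nEnd from −1 to 1 and that of Oct4+ minus Pdgfra+ nEnd from −0.667 to 1.

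**Figure D1:**
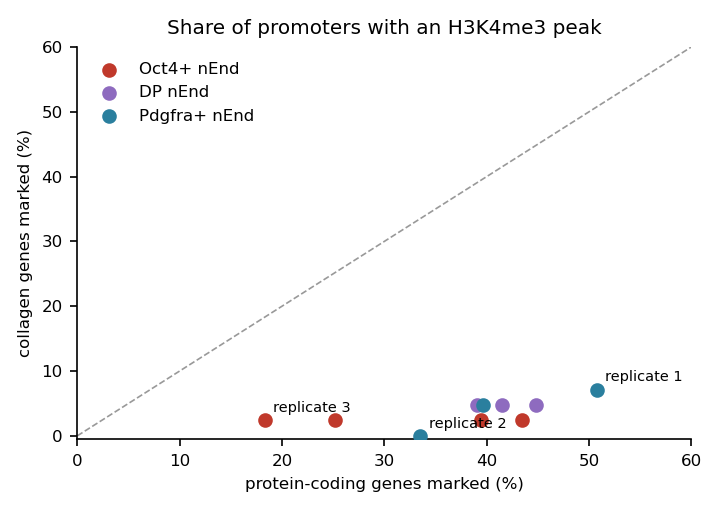
Share of the 42 collagen genes marked (vertical axis, %) against the share of all protein-coding genes marked (horizontal axis, %), with 1 point per library coloured by population and a dashed line of equal shares. All 10 libraries lie far below the line, with 18.3% to 50.8% of protein-coding genes and at most 3 collagen genes marked, and Pdgfra+ nEnd replicate 2 lies at 0.

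Col18a1 encodes the chain of collagen XVIII, a heparan sulfate proteoglycan of basement membranes whose end fragment is endostatin. The gene (ENSMUSG00000001435.15) spans 77052178 to 77166548 of chromosome 10 (GRCm38, minus strand), with 5 annotated TSS. In Oct4+ nEnd replicates 1, 2, 3 and 4 its peak had percentiles of 74.1, 73.3, 22.9 and 48.8, and it was absent from all 6 DP and Pdgfra+ nEnd libraries. The populations therefore did not overlap, and the lowest Oct4+ value came from replicate 3, the library with the fewest peaks. The peak measured 5504, 4825, 3588 and 3459 bp in the same order, and its total signal was 3.51, 3.77, 1.26 and 1.99 times the lowest total listed in its library.

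The mean percentile, with an absent peak set to 0, was 54.8 ± 24.3 in Oct4+ nEnd (SD, n = 4) and 0 in DP and in Pdgfra+ nEnd. Exact two-sided permutation tests over the libraries gave p = 0.0571 against DP nEnd (Benjamini-Hochberg adjusted p = 0.264 over 10603 genes) and p = 0.0571 against Pdgfra+ nEnd (adjusted p = 0.305 over 11614 genes). The difference did not pass the test in either comparison, and leaving out replicate 3 did not alter the presence of Col18a1, which the other 3 Oct4+ nEnd libraries carried and the 6 DP and Pdgfra+ nEnd libraries lacked.

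The Col18a1 peak sat at the most upstream of the 5 TSS, at 77166548, with its highest coverage 399 to 877 bp downstream of that start. Transcripts of Col18a1 from different starts encode collagen XVIII chains with different N-terminal ends. The start annotated as the principal isoform by APPRIS lies 52.8 kb downstream, at 77113705, and had no peak in any library. When only APPRIS principal starts were read, Col18a1 was therefore not marked in any library and the count of collagen genes in every Oct4+ and no DP nEnd library fell to 0. In the consensus lists the Col18a1 promoter was present for Oct4+ nEnd, at chr10:77162543-77168264, and missing for the other populations.

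Col5a1 encodes a chain of collagen V, a minor fibrillar collagen that joins collagen I fibrils and helps to set their diameter. The gene (ENSMUSG00000026837.15) spans 27886425 to 28039514 of chromosome 2 (plus strand). Its peak had percentiles of 9.03, 18.1 and 8.67 in DP nEnd (replicates 1, 2 and 3) and of 40.8 and 14.8 in Pdgfra+ nEnd (replicates 1 and 3). It was absent from Pdgfra+ nEnd replicate 2 and from all 4 Oct4+ nEnd libraries. The DP and Oct4+ nEnd values did not overlap, and the Pdgfra+ nEnd values lay both above and below those of DP nEnd.

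The peak was 2871, 3309 and 4191 bp wide in DP nEnd and 3365 and 2091 bp in Pdgfra+ nEnd, and it spanned the TSS, with its highest coverage 35 to 192.5 bp downstream. In DP nEnd its total signal was 1.20, 1.55 and 1.18 times the lowest total listed in the library, so it lay close to the bottom of each list. In Pdgfra+ nEnd it was 4.27 and 1.37 times the lowest.

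Col27a1 encodes collagen XXVII, a fibrillar collagen of cartilage with a shortened helix. The gene (ENSMUSG00000045672.15) spans 63214004 to 63334991 of chromosome 4 (plus strand), with 7 TSS. Its peak had percentiles of 12.8, 31.8 and 8.32 in DP nEnd and of 54.4 and 36.6 in Pdgfra+ nEnd replicates 1 and 3. It was absent from the same 5 libraries as the Col5a1 peak, so these genes were marked in the same 5 of 10 libraries. In every one of them except DP nEnd replicate 3 the Col27a1 peak ranked above the Col5a1 peak. It was wider too, at 4679, 5277 and 4225 bp in DP nEnd and 5858 and 3680 bp in Pdgfra+ nEnd, and its highest coverage lay 268 to 504.5 bp downstream of the start at 63215435.

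In DP nEnd the total signal of the Col27a1 peak was 1.28, 2.02 and 1.17 times the lowest listed, and in Pdgfra+ nEnd it was 5.75 and 2.03 times. Among the 3477 highest-ranking peaks of each library neither Col5a1 nor Col27a1 was marked in any library. The consensus lists of DP and Pdgfra+ nEnd held both promoters, and that of Oct4+ nEnd held neither.

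For Oct4+ against DP nEnd the mean percentile was 0 against 11.9 ± 5.35 for Col5a1 and 0 against 17.6 ± 12.4 for Col27a1 (SD, n = 4 and 3). The exact two-sided permutation test gave p = 0.0286 for each, the smallest that 4 libraries against 3 allow, and an adjusted p of 0.230. With 1 library left out, Oct4+ minus DP nEnd ranged from −13.6 to −8.85 for Col5a1 and from −22.3 to −10.6 for Col27a1. Against Pdgfra+ nEnd the means were 18.6 ± 20.7 for Col5a1 and 30.3 ± 27.7 for Col27a1 (SD, n = 3), with an exact permutation p = 0.143 and an adjusted p of 0.417 for each. With 1 library left out, Oct4+ minus Pdgfra+ nEnd ranged from −27.8 to −7.42 for Col5a1 and from −45.5 to −18.3 for Col27a1. Across all genes, 1320 of 10603 for Oct4+ against DP nEnd and 1387 of 11614 for Oct4+ against Pdgfra+ nEnd had an unadjusted exact permutation p under 0.05, and 0 passed after adjustment. The smallest adjusted p-values of these permutation tests were 0.230 and 0.239.

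Col23a1, a transmembrane collagen that is also shed from the cell surface, had a promoter peak only in Pdgfra+ nEnd replicate 1, the library with the most peaks. No other replicate stands behind this mark.

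**Figure D2:**
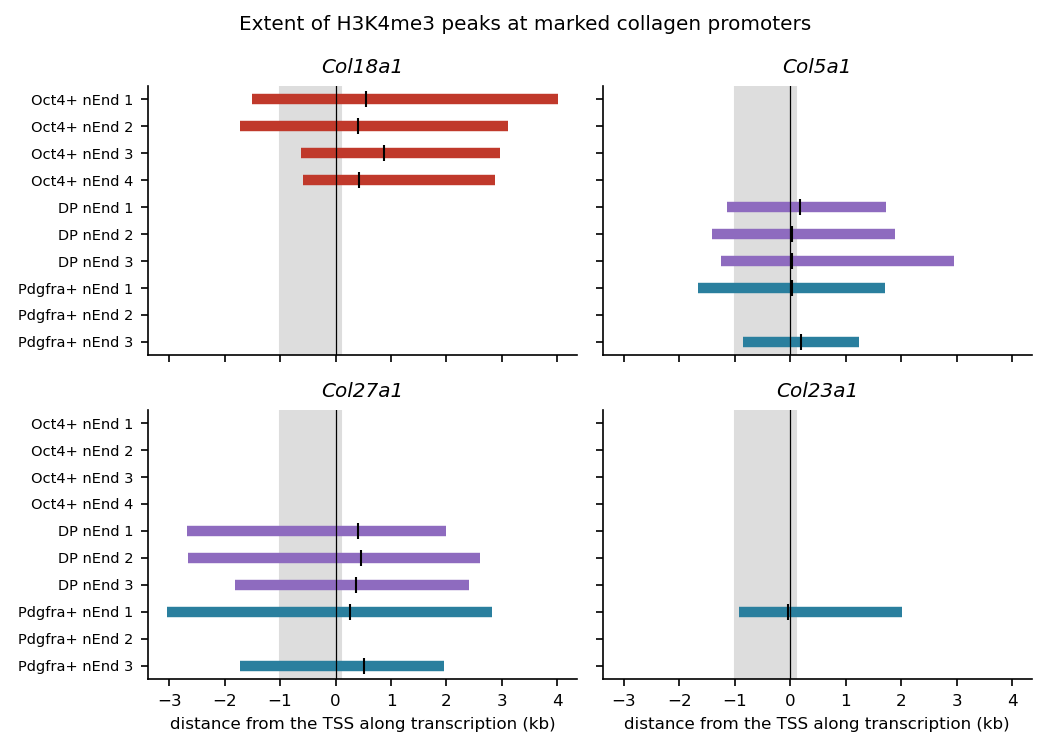
Extent of the promoter peak (coloured bars) and centre of its region of highest coverage (black ticks) in each library for the 4 marked collagen genes, against distance from the TSS in kb along the direction of transcription. The grey band is the promoter window. Col18a1 has bars in the 4 Oct4+ nEnd rows and no others, Col5a1 and Col27a1 have bars in the same 5 DP and Pdgfra+ nEnd rows, and Col23a1 has 1 bar.

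The counts of called collagen genes are given beside the share of all genes called by the same rule, which is taken over genes marked in either population of a pair. Called in every Oct4+ and no DP nEnd library was 1 of 42 collagen genes (Col18a1), where 0.415% of the 10603 genes marked in either population were called. In the reverse direction 2 collagen genes were called (Col5a1 and Col27a1), where the background was 3.99%. The same genes had percentiles that did not overlap: 1 was higher in every Oct4+ than in every DP nEnd library (background 4.62%) and 2 were higher in every DP than in every Oct4+ nEnd library (background 25.6%). Only 3 of the 42 collagen genes were marked in either population, so the other 39 could not be called in any direction, and nothing is read from these counts about the family as a whole.

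Between Oct4+ and Pdgfra+ nEnd, Col18a1 was again the 1 gene marked in every Oct4+ and no Pdgfra+ nEnd library, where 0.672% of 11614 genes were called, and the 1 gene with a higher percentile in every Oct4+ nEnd library (background 4.62%). In the reverse direction 0 collagen genes were called by presence (background 2.69%) and 0 by percentile (background 18.8%). Leaving out Pdgfra+ nEnd replicate 2 raised each of these counts from 0 to 2, namely Col5a1 and Col27a1. The background by percentile then rose as well, to 30.5% of 11614 genes, and that by presence was not computed without this library. The comparisons with Oct4+ nEnd share its 4 libraries.

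Between DP and Pdgfra+ nEnd, 0 collagen genes were called by presence in either direction, where the background was 0.214% for every DP and no Pdgfra+ nEnd library and 0.00891% for the reverse. By percentile 0 were higher in every DP nEnd library (background 2.78%) and 0 in every Pdgfra+ nEnd library (background 4.81%). For Col5a1 the mean percentile of DP minus Pdgfra+ nEnd was −6.63 (exact permutation p = 0.80, n = 3 and 3), and for Col27a1 it was −12.7 (exact permutation p = 0.60, n = 3 and 3), where 3 libraries against 3 cannot go below 0.10. Without Pdgfra+ nEnd replicate 2 the Col27a1 difference was −27.9, with values that no longer overlapped (background then 15.3%), and the Col5a1 difference was −15.9. Without Pdgfra+ nEnd replicate 1 they were −0.681 and 4.51, the latter with the opposite sign.

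Col4a1 and Col4a2, which share a promoter between them, gave a contrast within the collagen family. In the 6 DP and Pdgfra+ nEnd libraries their common peak had a percentile above 99.9 and was 9792 to 17932 bp wide. In Oct4+ nEnd its percentiles were 32.8 and 13.8 in replicates 1 and 2, and replicates 3 and 4 lacked it. None of the 42 other collagen genes came above the 74.1 percentile in any library.

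Collagen chains are hydroxylated, glycosylated, folded and exported in the secretory pathway, then trimmed and cross-linked outside the cell and bound by receptors. Of 47 genes for these steps, 29 (61.7%) were marked in 1 library or more, 20 in every DP and Pdgfra+ nEnd library and 5 in every Oct4+ nEnd library. Over all protein-coding genes 53.0% were marked in 1 library or more, 32.7% in every DP and Pdgfra+ nEnd library and 18.1% in every Oct4+ nEnd library. Without Oct4+ nEnd replicate 3 the last count was 9 of the 47, and 5487 of 21938 genes were marked. Among the modifying enzymes 14 of 15 were marked (all except P4ha3), and among chaperones and export factors 9 of 9. Among the enzymes that process and cross-link collagen 4 of 13 were marked, and among collagen receptors 2 of 10. Lox, Loxl1, Loxl2 and Loxl4, which cross-link collagen, the procollagen N-proteinases Adamts2, Adamts3 and Adamts14, and the receptors Itga1, Itga2, Itga10, Itga11, Ddr2, Gp6, Lair1 and Mrc2 were marked in 0 of 10 libraries, as were Tll1 and Tll2.

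Of these 47 genes, 28 were marked in either DP or Oct4+ nEnd and 29 in either Pdgfra+ or Oct4+ nEnd. Among them, 4 were marked in every DP and every Pdgfra+ nEnd library and in no Oct4+ nEnd library. Over all genes marked in either population, 3.99% were called for DP over Oct4+ nEnd and 2.69% for Pdgfra+ over Oct4+ nEnd. Creb3l1, a transcription factor that switches on collagen secretion genes, ranked at the 85.4, 89.8 and 91.0 percentiles in DP nEnd and at 95.5, 88.0 and 96.7 in Pdgfra+ nEnd. P4ha2, a catalytic subunit of collagen prolyl 4-hydroxylase, ranked at 62.5, 63.2 and 54.6 in DP nEnd and at 78.3, 58.1 and 65.8 in Pdgfra+ nEnd. P3h2, a prolyl 3-hydroxylase that acts on basement membrane collagen, ranked at 55.0, 62.1 and 55.7 in DP nEnd and at 72.2, 76.3 and 59.1 in Pdgfra+ nEnd. The last was Bmp1, the procollagen C-proteinase, with percentiles of 44.8 to 53.8 in DP nEnd and 51.0 to 69.5 in Pdgfra+ nEnd. In 2 of its 6 libraries the Bmp1 peak also covered the promoter of Sftpc.

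By percentile 14 of the 47 were higher in every DP than in every Oct4+ nEnd library and 15 in every Pdgfra+ than in every Oct4+ nEnd library, of 28 and 29 that were marked in either population. The background over all genes marked in either population was 25.6% and 18.8%. None of the 47 was higher in every Oct4+ nEnd library in either comparison (background 4.62% in each). The 14 comprised 7 modifying enzymes (P4ha1, P4ha2, Plod2, P3h1, P3h2, P3h4 and Colgalt1), 5 chaperones and export factors (Serpinh1, Fkbp10, Mia3, Creb3l1 and Sparc), Bmp1 and the receptor Ddr1. Itgb1, the beta subunit of the collagen-binding integrins, was added against Pdgfra+ nEnd. With the 3477 highest-ranking peaks of each library the counts were 10 and 11. The share of all genes called was not computed for that setting, so these counts are not read against a background. Without Oct4+ nEnd replicate 3 the counts were 14 and 15, with backgrounds of 25.6% and 18.8%. Without that replicate 1 gene, Crtap, a partner of prolyl 3-hydroxylase, was higher in every Oct4+ nEnd library in both comparisons, with a background of 9.33% for DP nEnd and 8.28% for Pdgfra+ nEnd. Its percentiles were 66.4, 56.3 and 33.3 in Oct4+ nEnd replicates 1, 2 and 4, 9.09, 27.2 and 22.5 in DP nEnd and 19.6 in Pdgfra+ nEnd replicate 1, and the other 3 libraries had no Crtap peak.

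Serpinh1, the collagen chaperone HSP47, had the largest difference of the 14, with percentiles of 99.1, 98.9 and 98.9 in DP nEnd and of 20.4 and 1.42 in Oct4+ nEnd replicates 1 and 2, and no peak in replicates 3 and 4. In Pdgfra+ nEnd it ranked at 99.7, 99.2 and 99.1. Sparc, a matricellular protein that binds collagen, ranked at 98.2, 97.8 and 95.3 in DP nEnd and at 13.4 and 6.88 in the same Oct4+ nEnd replicates. Plod2, the lysyl hydroxylase of the collagen telopeptides, ranked at 83.4, 81.8 and 76.1 in DP nEnd and at 8.60 and 0.0494 in Oct4+ nEnd. For these 3 genes the exact permutation test against DP nEnd gave p = 0.0286 and an adjusted p of 0.230, so they did not pass either.

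P3h4 and Fkbp10 were marked by the same peak in each of the 7 libraries where they were marked and cannot be told apart. P3h1, Plod3 and Sec23a each shared their peak with a neighbour in 10 of 10 libraries (AU022252, Znhit1 and Gemin2). Of the 29 marked genes, 21 had a peak that covered no other protein-coding promoter. Between DP and Pdgfra+ nEnd, 27 of the 47 were marked in either population. Of these, 5 were higher in every Pdgfra+ nEnd library (P3h4, Serpinh1, Fkbp10, Mia3 and Itgb1, with a background of 4.81%) and 0 in every DP nEnd library (background 2.78%). P3h4 and Fkbp10 count the same peak. The count of 5 became 13 without Pdgfra+ nEnd replicate 2 (background then 15.3%), 9 without its replicate 3 (11.9%) and 8 without DP nEnd replicate 2 (9.14%). The count of 0 became 3 without Pdgfra+ nEnd replicate 1 (background then 27.1%) and 1 without DP nEnd replicate 1 (4.41%).

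**Figure D3:**
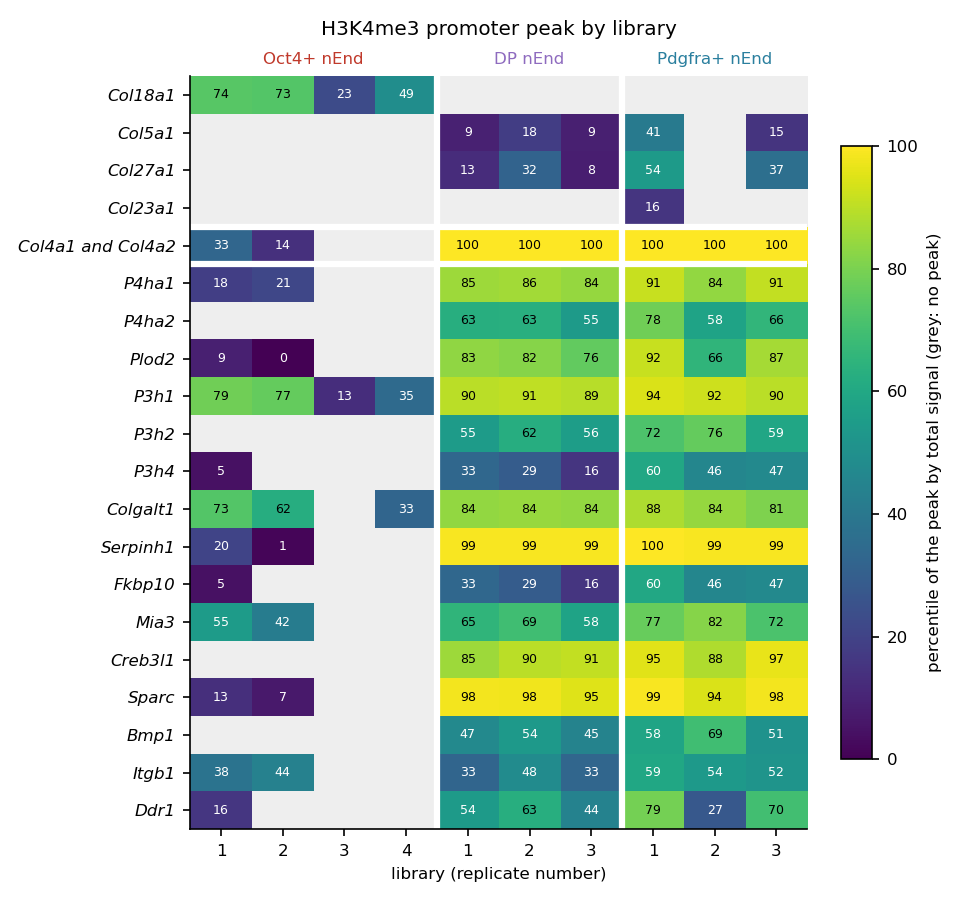
Percentile of the promoter peak by total signal within its library (colour and printed number) for the 4 marked collagen genes, for Col4a1 and Col4a2, and for the 15 collagen biosynthesis and receptor genes higher in every Pdgfra+ than in every Oct4+ nEnd library. Columns are the 10 libraries by population, and grey cells have no peak. The cells of Serpinh1 and Sparc lie at 94.3 or above in DP and Pdgfra+ nEnd, while those of Col5a1 and Col27a1 lie between 8.32 and 54.4.

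The cells grew on fibroblasts, a cell type whose Col1a1, Col1a2 and Col3a1 promoters are active, so fibroblast markers were read beside the collagens. Of 15 fibroblast markers outside the collagen family, 13 had no peak in any library, among them Thy1, Pdgfrb, Prrx1, Postn, Lum and Dcn. Twist1 was marked in Oct4+ nEnd replicates 1 and 2, DP nEnd replicates 1 and 2 and Pdgfra+ nEnd replicate 1, between the 0.84 and 13.1 percentiles. Tbx15 was marked in DP nEnd replicate 2 at 3.67 and in Pdgfra+ nEnd replicate 1 at 14.1. A library thus had 0 to 1 of the 15 marked in Oct4+ nEnd, and 0 to 2 in DP and in Pdgfra+ nEnd. Pdgfra+ nEnd replicate 1, where Col5a1 and Col27a1 had their highest percentiles, had 2 of the 15 marked, and Pdgfra+ nEnd replicate 2, where both were absent, had 0. DP nEnd replicate 3 and Pdgfra+ nEnd replicate 3, where both were marked, also had 0. Col1a1, Col1a2 and Col3a1 themselves had no peak in any library. DP nEnd was sorted as positive for OCT4-mCherry, a reporter that the feeders do not carry. Pdgfra+ nEnd was sorted as positive for PDGFRA without that reporter signal, so the reporter does not separate it from feeders. Whether feeders carried PDGFRA at the surface was not measured here. The part of feeder cells in the marks at Col5a1 and Col27a1 was not otherwise tested.

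The promoters of collagen genes were also described by their base composition, which the choice of genes did not use. In the promoter window of the most upstream coding TSS, a gene was called CpG-rich at an observed over expected CpG ratio of 0.6 or more with at least 50% G and C. A gene counted as marked by a peak at any of its TSS, so the peak need not lie at the window whose composition was read. Among 21843 protein-coding genes 4630 were CpG-rich, of which 91.9% were marked in 1 library or more, against 42.5% of the other 17213. Of the 42 collagen genes 3 were CpG-rich, Col27a1 (ratio 0.689), Col12a1 (0.767) and Col25a1 (0.606), and only Col27a1 of these was marked. Of the other 39, 3 were marked (7.69%), below the 42.5% of all such genes. The median ratio was 0.344 over the collagen genes and 0.402 over all genes. Among the marked collagen genes the ratio was 0.543 at Col5a1, 0.503 at Col23a1 and 0.342 at Col18a1, and it was 0.144 at Col3a1.

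**Figure D4:**
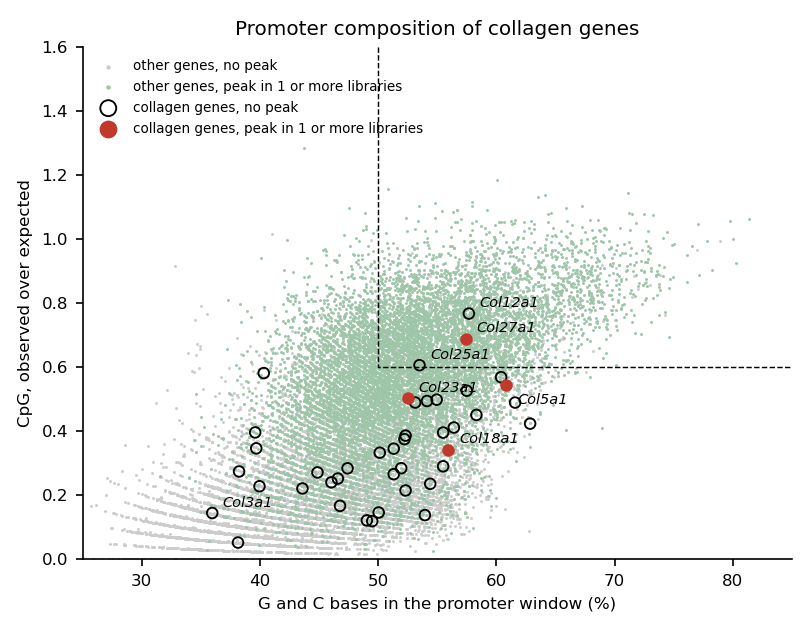
CpG observed over expected (vertical axis) against the share of G and C bases (horizontal axis, %) of the promoter window for 21843 protein-coding genes, with the 42 collagen genes as large circles, filled red where a peak was found in 1 library or more. Dashed lines mark the CpG-rich corner at 0.6 and 50%, which holds 3 collagen genes, and the points of marked genes are drawn over those of unmarked ones.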

How the data were processed

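The authors sequenced the CUT&Tag libraries paired-end and, per the labels' processing notes, used bcl2fastq 2.19.1, Bowtie2, SAMtools 1.12, deepTools, bedtools 2.26.0 and SEACR with the mm10 build. For each library they deposited SEACR peaks called against IgG with the stringent setting, with 2 signal columns, the total signal and the highest coverage in the peak. They also deposited 1 DiffBind consensus list per population, whose value column is the same in every row. The peak lists carry no read totals. Sequencing depth is therefore unknown, and values have no counting interval.

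The annotation was GENCODE M21 (21938 protein-coding genes, 93513 TSS, all transcript types of these genes). Presence and percentile were compared between populations for each pair of them, with exact two-sided permutation tests per gene and Benjamini-Hochberg adjustment over all genes marked in the pair. Named were every collagen gene with a promoter peak and the genes of the 4 biosynthesis and receptor lists that were called. The collagen genes and all lists were chosen with earlier results of these data known. The study describes its libraries as biological replicates, with 3 per population, while 4 Oct4+ nEnd libraries were deposited. Whether they came from separate cultures is not given in the sources used here, so p-values measure the spread between these libraries. Same-numbered libraries were treated as unpaired in the main comparisons. Whether a shared number means a shared culture or sort is not given in the sources used here. Of 9 correlations of their deviations 5 were over 0.1 (range −0.201 to 0.250), which does not settle it. No peak was identical between any 2 libraries. The overlap and call steps were tested on simulated data. Tools were matplotlib 3.10.9, pandas 2.3.3, numpy 2.4.6 and Python 3.11.15.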

Additional observations from a re-analysis of the deposited data

How the results depend on the processing

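The collagen counts and the values of the 4 marked genes were recomputed with promoters widened to 2500 bp either way, with a peak covering 50% of the window, with ranks by highest coverage, with the TSS of transcripts typed as protein coding only (chosen after seeing the data), with equal numbers of peaks, with APPRIS principal TSS, with a replicate block and without each library. Under the first 4 of these the same 4 genes were marked in the same libraries, and no collagen count moved by over 1.5 times. Ranks by highest coverage kept the direction of each called gene but lowered the percentiles: Oct4+ minus DP nEnd was −7.06 for Col5a1, −10.7 for Col27a1 and 40.0 for Col18a1, and Oct4+ minus Pdgfra+ nEnd was −12.0 for Col5a1. With equal numbers of peaks (3477 per library), the difference in marked collagen genes per library was 1 for Oct4+ minus DP nEnd, 1 for Oct4+ minus Pdgfra+ nEnd and 0 for DP minus Pdgfra+ nEnd, the Col18a1 difference was 30.2 in both comparisons with Oct4+ nEnd, and both counts of collagen genes called for DP over Oct4+ nEnd were 0, since fewer peaks were read. With APPRIS principal TSS the differences with Oct4+ nEnd were −2 against DP nEnd and −1.67 against Pdgfra+ nEnd, and the 4 counts called for Oct4+ nEnd, by presence and by percentile against DP and Pdgfra+ nEnd, were 0, since the marked Col18a1 start is not read. Leaving out 1 library gave 0 to 2 for both counts called for Pdgfra+ over Oct4+ nEnd, 0 to 1 for the percentile count of Pdgfra+ over DP nEnd, −0.50 to 1 for the per-library difference of DP minus Pdgfra+ nEnd and −1.5 to 0 for that of Oct4+ minus Pdgfra+ nEnd. In each case the library that moved the value furthest from the whole set was Pdgfra+ nEnd replicate 2. Without it the percentile background was 30.5% for Pdgfra+ over Oct4+ nEnd and 15.3% for Pdgfra+ over DP nEnd. With all libraries these backgrounds were 18.8% and 4.81%.

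With the replicate block (numbers 1 to 3, not known to pair the libraries) no collagen count changed its call: the differences per library were −1, −0.667 and 0.333. The same alternatives were run on the biosynthesis and receptor genes after their values were seen. The replicate block moved the count for Pdgfra+ over DP nEnd from 5 to 9, and ranks by highest coverage moved it to 3. The share of all genes called was not computed for those settings, so nothing is read from these counts. Leaving out 1 library gave 5 to 13, where the background ranged from 5.51% to 15.3%. For DP over Pdgfra+ nEnd it gave 0 to 3, where the count with all libraries was 0 and the background ranged from 2.88% to 27.1%. It gave 0 to 1 for Oct4+ over DP nEnd and for Oct4+ over Pdgfra+ nEnd, with backgrounds of up to 9.33% and 8.74%. Without a library, with the block, or for DP against Pdgfra+ nEnd, the permutation test has too few splits to reach an unadjusted p under 0.05, so these settings say nothing about the tests. In the other settings of the comparisons with Oct4+ nEnd, 0 genes had an adjusted p under 0.05, as with the main settings. The unknown depth limits what an absent peak means: it is a peak not called.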
